A study of Homo sapiens with 2 samples.

Results

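The genes described here are 10 genes of xenobiotic and lipid hydroxylation and of the aryl hydrocarbon receptor (AHR) response: CYP1A1, CYP1B1, CYP4F2, CYP4F3, CYP4F11, CYP4F12, CYP24A1, AHR, ARNT and TIPARP. They were chosen by gene symbol from a table of 13137 genes, with their tag counts in these same libraries already known, so their differences are given as a description and carry no test. The table lists 9 of the 10, and CYP4F2 is not listed. The study compared A549 cells, a human lung adenocarcinoma line, that carry a lentiviral doxycycline-inducible short hairpin RNA against SOX2 (shRNA-SOX2) or a scrambled hairpin (shRNA-Con), both driven by the H1tetO promoter and both kept as puromycin-selected pools of cells. Each line was given doxycycline for 4 days, and 1 digital gene expression library was made of each, in which short sequence tags from poly(A) RNA are counted per gene. With 1 library of each kind there was no replicate, and the intervals below cover counting error only.

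AHR is a receptor of the bHLH-PAS family that waits in the cytoplasm with HSP90. After binding a ligand it enters the nucleus, pairs with ARNT and activates genes such as CYP1A1, CYP1B1 and TIPARP. TIPARP is a mono-ADP-ribosyltransferase that in turn restrains AHR. The CYP4F enzymes add a hydroxyl group to the end of fatty acid chains, including leukotriene B4, and CYP24A1 is the mitochondrial hydroxylase that inactivates vitamin D.

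The libraries held 2304184 gene tags for shRNA-Con and 2093816 for the shRNA-SOX2-labelled library, and levels are given as tags per 1000000 gene tags (CPM). The targeted gene SOX2 was read as 16 tags in shRNA-Con against 23 in the shRNA-SOX2-labelled library, at a ratio of 1.58 (95% interval 0.800 to 3.20), so it was not lower there at this depth. For this reason that library is named throughout only by its label. Of the epithelial markers, KRT8 (7702 and 12729 tags) and KRT18 (10318 and 7887 tags) were abundant, CDH1 had 50 tags in each, KRT19 had 35 and 127, and EPCAM had 8 and 4. Of the markers of other cells, the leukocyte gene PTPRC had 2 tags in each library, the endothelial gene PECAM1 had 3 and 0, the hepatocyte gene ALB was not listed, and the fibroblast gene COL1A1 had 44 and 43. In RNA pooled from many cells, fewer expressing cells and less RNA per cell cannot be told apart.

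CYP4F12 and CYP1A1 were higher in the shRNA-SOX2-labelled library and CYP24A1 was lower, while AHR was lower by less than 2-fold. CYP4F12, a fatty acid hydroxylase, was 15.0-fold higher (95% interval 7.89 to 31.9). CYP1A1, the classic inducible AHR target, was at least 5.50-fold higher, its 0 tags in shRNA-Con being taken as 3 and its 15 tags in the other library as exact. With counting error in both libraries, the 95% lower limit of the CYP1A1 ratio was 3.95. CYP24A1 was 2.72-fold higher in shRNA-Con. A gene was called different when it had at least 10 tags in the libraries together and differed at least 2-fold, with a count under 3 set to 3. All 9 listed genes reached 10 tags, and 3 of them were called, 2 higher and 1 lower. Of all 11127 genes with 10 tags, 25.5% were called in either direction, 11.8% higher and 13.7% lower in the shRNA-SOX2-labelled library. The intervals of 5 of the 9 genes included a ratio of 1. The share of all genes whose interval does so was not computed, so this count has no background beside it.

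**Figure D1:**
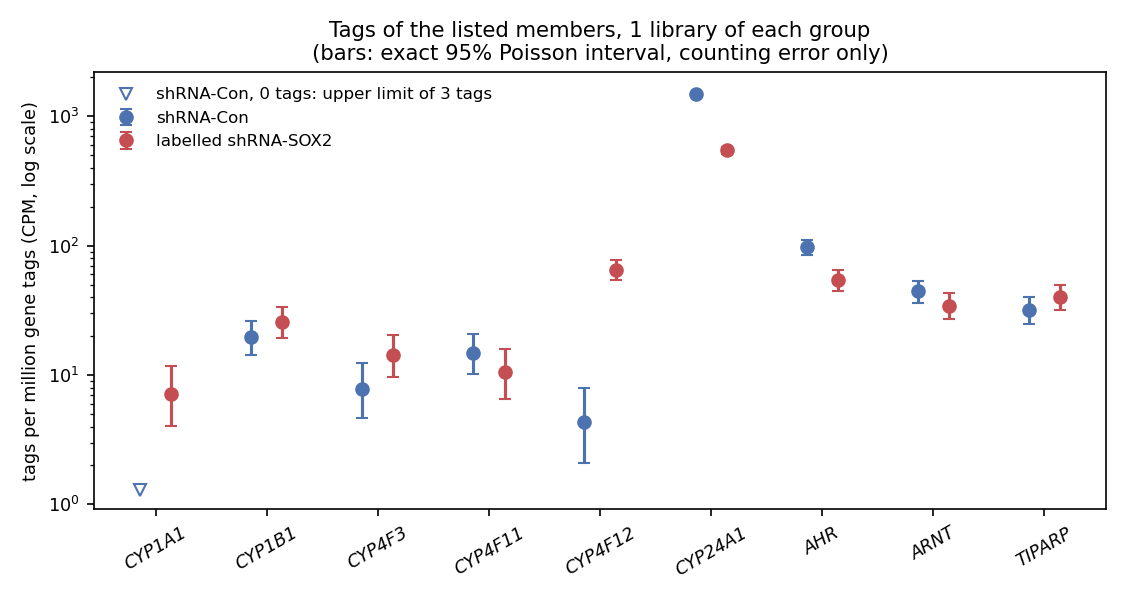
CPM (tags per 1000000 gene tags, log scale) of the 9 listed genes in shRNA-Con (blue) and in the shRNA-SOX2-labelled library (red), with exact 95% Poisson intervals. The open triangle marks the upper limit of 3 tags for CYP1A1, which had 0 tags in shRNA-Con. CYP24A1 stands highest in both libraries.

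**Figure D2:**
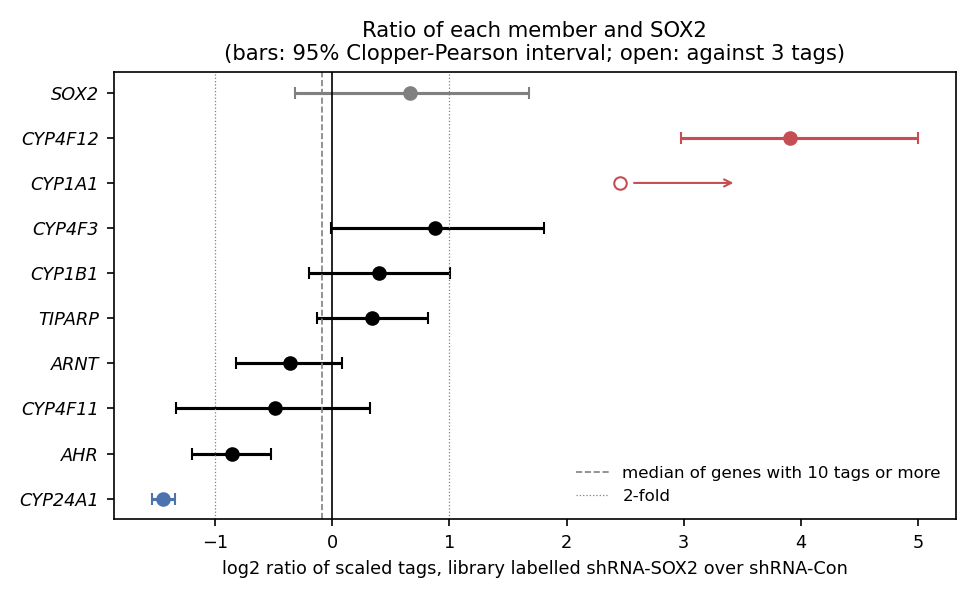
Log2 ratio of the shRNA-SOX2-labelled library over shRNA-Con for the 9 listed genes and SOX2, with 95% Clopper-Pearson intervals. CYP4F12 (3.90) stands farthest above 0 and CYP24A1 (-1.44) farthest below, the arrow marks CYP1A1 as a lower bound, and the dashed line is the median of all genes (-0.09).

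The receptor AHR had 225 tags in shRNA-Con against 113 in the shRNA-SOX2-labelled library, which is 97.6 and 54.0 CPM. Its ratio was 0.553 (0.437 to 0.696), a log2 difference of -0.86, which lay outside counting error and short of the 2-fold call. The partner ARNT, which dimerizes with AHR on DNA, had 102 and 72 tags, or 44.3 and 34.4 CPM. Its ratio of 0.777 had an interval of 0.566 to 1.06, so a difference was not detectable at this depth. There were 2.21 AHR tags per ARNT tag in shRNA-Con against 1.57 in the other library. In GRCh38, AHR (Entrez Gene 196) spans 16916359 to 17346152 of chromosome 7 on the plus strand, and ARNT (Entrez Gene 405) spans 150809705 to 150876768 of chromosome 1 on the minus strand.

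Of the target genes, CYP1A1 (Entrez Gene 1543), an enzyme that oxidizes polycyclic aromatic hydrocarbons, had 0 tags in shRNA-Con against 15 in the shRNA-SOX2-labelled library. The 15 tags correspond to 7.16 CPM, with a Poisson interval of 8.40 to 24.7 tags, and a count of 0 in shRNA-Con allows up to 3 tags, or 1.30 CPM. CYP1B1 (Entrez Gene 1545), its relative that also hydroxylates oestradiol, had 45 and 54 tags, or 19.5 and 25.8 CPM. The CYP1B1 ratio of 1.32 (0.873 to 2.01) did not exceed counting error. TIPARP (Entrez Gene 25976), the feedback repressor, had 73 and 84 tags, or 31.7 and 40.1 CPM, and its ratio of 1.27 (0.914 to 1.76) did not either. Thus the AHR targets among the 10 genes had more tags in the shRNA-SOX2-labelled library, by an amount beyond counting error only for CYP1A1. CYP1A1 made up 0 of 45 CYP1 tags in shRNA-Con, which allows a share of up to 6.67% (3 tags of 45), and 15 of 69 (21.7%, 95% Wilson interval 13.6 to 32.8%) in the other library. The share is of tags, which were not scaled by transcript length, and not of transcript mass.

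CYP1A1 spans 74719542 to 74725610 of chromosome 15 and CYP1B1 38066973 to 38109902 of chromosome 2, both on the minus strand, and TIPARP spans 156673235 to 156706770 of chromosome 3 on the plus strand. AHR with ARNT binds the core GCGTG, and the 250 bases before the start of CYP1A1 and of TIPARP are printed to show where this core lies in these target genes. They come from RefSeq on GRCh38.p14, written 5′ to 3′ on the gene's strand, with the core in capitals as GCGTG, or as CACGC where it lies on the other strand.
CYP1A1, chr15:74725529-74725778, minus strand: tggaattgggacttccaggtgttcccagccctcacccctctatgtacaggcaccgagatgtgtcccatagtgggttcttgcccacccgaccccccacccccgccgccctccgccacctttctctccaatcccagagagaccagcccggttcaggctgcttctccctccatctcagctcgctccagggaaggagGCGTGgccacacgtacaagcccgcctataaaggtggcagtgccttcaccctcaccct
TIPARP, chr3:156674340-156674589, plus strand: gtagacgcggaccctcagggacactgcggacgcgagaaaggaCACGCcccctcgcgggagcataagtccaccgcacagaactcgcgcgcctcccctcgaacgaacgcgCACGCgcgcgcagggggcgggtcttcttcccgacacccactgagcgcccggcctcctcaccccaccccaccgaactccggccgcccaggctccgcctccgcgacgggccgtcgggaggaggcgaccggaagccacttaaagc
CYP1A1 holds the core once, starting 57 bases before the start, and the TIPARP window printed holds it 2 times on the other strand, 208 and 142 bases before. TIPARP has 3 annotated starts in this table, and the windows of the other two hold no core. The table of promoters, each reaching from 250 bases before to 50 after a start, matched 7 of the 10 genes in 10 windows. Of these 10 windows, 3 held the core, that of AHR being 37 bases after its start. Of all 35116 windows, 12832 (36.5%) hold GCGTG on either strand, so the match is a description of the letters and no evidence of binding.

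The CYP4F genes lie together on chromosome 19. CYP4F3 (15640897 to 15662825) and CYP4F12 (15672757 to 15697174) are neighbours on the plus strand, and CYP4F2 (15878023 to 15898120) and CYP4F11 (15912367 to 15934867) are on the minus strand. CYP4F3 (Entrez Gene 4051), which hydroxylates leukotriene B4, had 18 tags in shRNA-Con against 30 in the shRNA-SOX2-labelled library, or 7.81 and 14.3 CPM. Its ratio was 1.83 (0.990 to 3.49). CYP4F11 (Entrez Gene 57834), which acts on long-chain fatty acids and vitamin K, went the other way, with 34 and 22 tags, or 14.8 and 10.5 CPM, at a ratio of 0.712 (0.397 to 1.25). Neither ratio was distinguishable from 1 by counting error. CYP4F12 (Entrez Gene 66002) had 10 and 136 tags, or 4.34 and 65.0 CPM, and its log2 ratio of 3.90 stood at percentile 99.9 of the 11127 genes.

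CYP4F12 therefore made up 10 of 62 CYP4F tags in shRNA-Con (16.1%, 95% Wilson interval 9.00 to 27.2%) and 136 of 191 (71.2%, 64.4 to 77.2%) in the shRNA-SOX2-labelled library. In the same order, the share of CYP4F11 was 54.8% and 11.5%, and that of CYP4F3 was 29.0% and 15.7%. Without CYP4F12 the CYP4F tags numbered 52 and 55, so the larger CYP4F sum in the shRNA-SOX2-labelled library lay almost wholly in this 1 gene. The pseudogene CYP4F35P, counted with the family, had 0 and 3 tags.

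**Figure D3:**
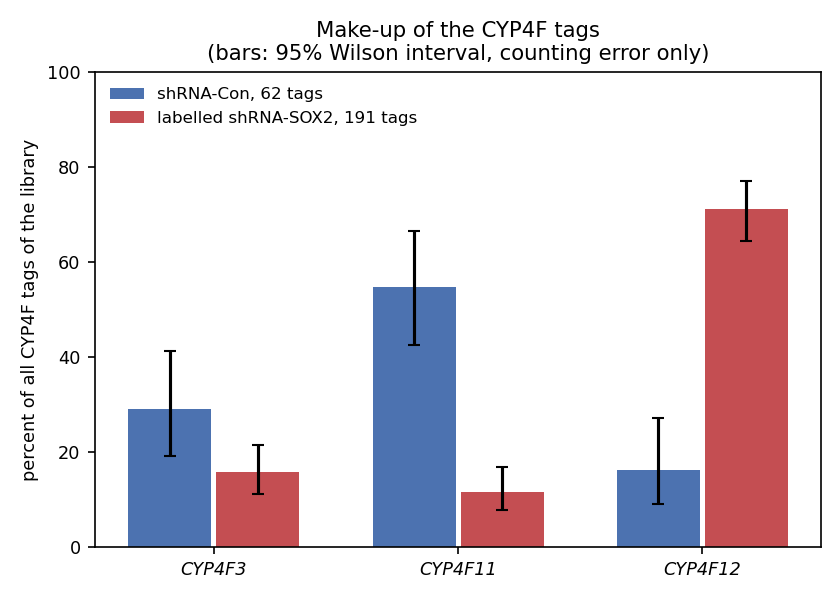
Percent of all CYP4F tags of each library that belong to CYP4F3, CYP4F11 and CYP4F12, with 95% Wilson intervals for 62 tags in shRNA-Con (blue) and 191 in the shRNA-SOX2-labelled library (red). CYP4F11 holds the largest share in shRNA-Con (54.8%) and CYP4F12 in the other library (71.2%).

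The CYP4F genes are near copies, and how a tag that fits more than 1 of them was assigned is not given in the sources used here. Over the aligned coding sequences, CYP4F2 was 90.9% identical to CYP4F3, 88.2% to CYP4F11 and 85.4% to CYP4F12. CYP4F12 was 83.2% identical to CYP4F3 and 86.6% to CYP4F11. Tag libraries of this kind usually read the bases that follow the last CATG of a transcript, although the enzyme used here is not named. The 21 bases from that site are printed for 1 annotated GENCODE transcript form of each gene, to show how far a tag can tell the genes apart, with the site in capitals.
CYP4F2: CATGacattaaatcatcttag
CYP4F3: CATGatattaaatcatcttag
CYP4F11: CATGgggctcctggggactgg
CYP4F12: CATGaataaaacggtgctgtc
For CYP4F2 and CYP4F3 the forms with the closest tags are printed, and these tags differ by a single base (C6T, the CYP4F2 base first, counted from 1 at the first base of the site). The CYP4F3 form CYP4F3-201 ends in CATGacagtcttgcacatatt, which has no other gene within 1 mismatch, so tags of CYP4F3 can be uncertain for some forms and not for others. No other gene has a CATG tag within 1 mismatch of the CYP4F11 or CYP4F12 tag printed here. Counting every CATG site in the transcripts, 6 of 15 tags of CYP4F12 also occur in another gene, as do 6 of 25 of CYP4F3, 3 of 19 of CYP4F11 and 3 of 14 of CYP4F2. The counts of the 3 listed CYP4F genes may therefore share tags with relatives or pseudogenes. For the genes outside this family, other genes share 0 of 17 such tags of CYP1A1 and 0 of 24 of CYP1B1. For ARNT it is 0 of 19 and for TIPARP 0 of 16. For CYP24A1 it is 1 of 14 and for AHR, in the GENCODE model with the long span given above, 15 of 34. At the last CATG of the annotated coding transcripts alone, 0 tags of CYP4F3, CYP4F11, CYP4F12, CYP24A1 or AHR occur exactly in another gene. The last tag of the form CYP24A1-203 nevertheless has 29 other genes within 1 mismatch, while those of CYP24A1-201 and CYP24A1-202 have 0.

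CYP24A1 (Entrez Gene 1591), at 54153449 to 54173973 of chromosome 20 on the minus strand, had 3415 tags in shRNA-Con against 1142 in the shRNA-SOX2-labelled library. These are 1482 and 545 CPM, a ratio of 0.368 (0.344 to 0.394) and a log2 difference of -1.44. It held 3415 of the 4055 tags of all cytochrome P450 genes in shRNA-Con (84.2%) and 1142 of 2060 (55.4%) in the other library. The remaining P450 tags numbered 640 and 918, so the P450 tags apart from CYP24A1 were more numerous in the shRNA-SOX2-labelled library. Most of this excess lay in CYP4F12 (10 and 136 tags), CYP2S1 (67 and 159) and TBXAS1 (43 and 99). Other P450 genes, such as CYP20A1 (126 and 79), had fewer tags there. CYP24A1 had the most tags of the 9 genes and the narrowest interval.

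**Figure D4:**
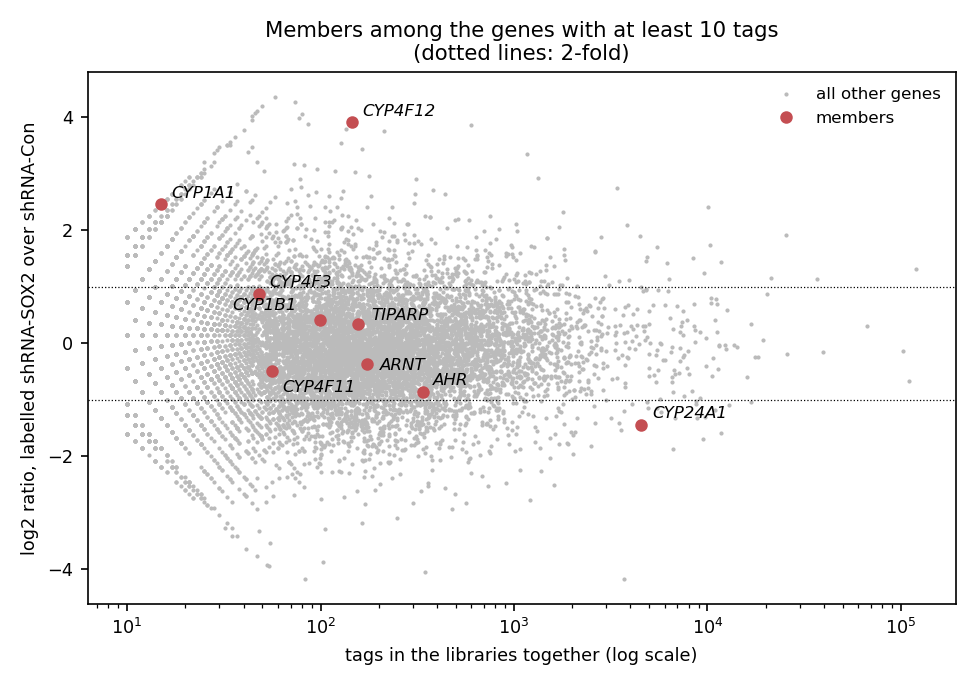
Log2 ratio of the shRNA-SOX2-labelled library over shRNA-Con against the tags of both libraries together (log scale) for the 11127 genes with at least 10 tags. CYP4F12 lies near the upper edge of the cloud, CYP24A1 lies below the 2-fold line among genes of high counts, and CYP1A1 lies where counts are few and ratios spread widely.

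The other genes of these pathways were taken from 8 lists written from textbook roles, with earlier results of these data known. Their counts are read against the 25.5% called among all genes, whose median log2 ratio was -0.09 and whose quartiles were -0.63 and 0.49. Of the 15 genes of the AHR complex and its coactivators, 13 had 10 tags, with 1 higher, 0 lower and a median of -0.05. The higher gene was SMARCA4, a chromatin remodelling ATPase, with 22 and 53 tags (log2 1.41). The acetyltransferase CREBBP had 236 and 118 tags (-0.86) and the coactivator NCOA1 had 85 and 47 (-0.72). Chosen after their values were seen, the chaperones HSP90AA1 (992 and 1191 tags) and HSP90AB1 (1647 and 1873) are given as partners of the unliganded receptor, and neither differed by 2-fold. The AHR repressor AHRR, also chosen afterwards, had 2 and 3 tags, too few for a comparison.

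Of 20 further AHR target genes, 13 were listed and 11 had 10 tags, with 0 higher, 4 lower and a median of 0.01. These counts depend on how the lists were drawn. CYP2S1, also inducible through AHR, was placed with the other P450 genes and was higher (67 and 159 tags, log2 1.38). With TMM factors or median-ratio scaling the split was 1 higher and 3 lower, since NFE2L2 and ALDH3A1 lie close to 2-fold. The lower genes were the amino acid transporter SLC7A5 (1352 and 359 tags, log2 -1.77), the prostaglandin synthase PTGS2 (336 and 135, -1.18), the growth factor EREG (526 and 215, -1.15) and NFE2L2, the regulator of the antioxidant response (225 and 100, -1.03). Among the targets not called, ALDH3A1, an aldehyde dehydrogenase, had 1736 and 3071 tags (0.96), the quinone reductase NQO1 had 4179 and 6200 (0.71), and the efflux pump ABCG2 had 96 and 150 (0.78). AHR target genes besides CYP1A1, CYP1B1 and TIPARP thus lay on both sides of 0.

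The other bHLH-PAS factors, relatives of AHR and ARNT, had 1 gene higher and 4 lower among 11 with 10 tags, with a median of -0.78. The lower genes were ARNT2, the second ARNT (72 and 21 tags, log2 -1.64), the hypoxia factors HIF1A (1511 and 464, -1.57) and EPAS1 (744 and 234, -1.53), and the clock factor NPAS2 (225 and 72, -1.51). HIF1A and EPAS1 also pair with ARNT, whose own log2 difference was -0.36. The clock gene PER3 counted as higher on 2 and 8 tags, and the interval of its ratio of 2.93 was 0.878 to 42.6.

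In the PARP family, to which TIPARP belongs, 4 of 14 genes with 10 tags were higher and 0 lower, with a median of 0.32. They were PARP3 (24 and 59 tags, log2 1.44), PARP9 (20 and 42, 1.21), PARP11 (18 and 35, 1.10) and PARP4 (130 and 251, 1.09). PARP3 acts in DNA break repair and PARP9 in the interferon response. ZC3HAV1, an antiviral RNA-binding member without catalytic activity, had 106 and 157 tags (0.70) and PARP6 had 281 and 154 (-0.73).

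The 28 cytochrome P450 genes listed included 6 of the 10 genes described here. Over all 28, 15 had 10 tags, 4 were higher and 1 was lower, beside 11.8% higher and 13.7% lower of all genes. These calls include CYP1A1, CYP4F12 and CYP24A1, which were chosen with their counts known. The higher ones besides CYP1A1 and CYP4F12 were CYP2S1, an extrahepatic P450 that is itself inducible through AHR (67 and 159 tags, log2 1.38), and TBXAS1, the thromboxane synthase (43 and 99, 1.34). The other 13 had at most 9 tags in the libraries together. A list of 50 other P450 genes, of which 21 were listed and 9 had 10 tags, had 2 higher, 0 lower and a median of 0.36. Its share called was 22.2%, near the 25.5% of all genes.

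P450 enzymes need electrons from partner proteins. Of 7 such genes, 2 were higher and 0 lower, with a median of -0.14. FDXR, the reductase that feeds mitochondrial P450 enzymes such as CYP24A1 through ferredoxin, had 324 and 1464 tags, a ratio of 4.97 (4.41 to 5.63). CYB5B, the cytochrome b5 of the outer mitochondrial membrane, had 357 and 1346 tags, a ratio of 4.15 (3.69 to 4.68). POR, the reductase of the microsomal CYP1 and CYP4F enzymes, which is given although its log2 difference of -0.29 put it outside the rule for named genes, had 364 and 270 tags. The ferredoxins FDX1 (93 and 67 tags, log2 -0.33) and FDX1L (38 and 28, -0.30), which carry electrons from FDXR and were chosen after their values were seen, did not reach 2-fold.

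Of 17 vitamin D genes besides CYP24A1, 8 had 10 tags, with 0 higher, 2 lower and a median of -0.25. The lower ones were MED1, the Mediator subunit that binds the vitamin D receptor (193 and 61 tags, log2 -1.52), and the corepressor NCOR1 (109 and 42, -1.24). IGFBP3, a growth factor binding protein that vitamin D induces, had 401 and 561 tags (0.62). The receptor gene VDR and the activating enzyme gene CYP27B1, both chosen after their values were seen, each had 4 tags in shRNA-Con against 0 in the other library, which does not allow a comparison. Another 14 genes were taken as partners of CYP4F in leukotriene B4, fatty acid and vitamin K pathways. Of these, 8 had 10 tags, with 0 higher, 1 lower and a median of -0.04. The 8 include the leukotriene receptor LTB4R and the vitamin K enzymes GGCX and VKORC1. The lower gene was the soluble epoxide hydrolase EPHX2, on 11 and 4 tags with a ratio interval of 0.0929 to 1.35, while its microsomal relative EPHX1 had 816 and 1155 tags (log2 0.64).

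**Figure D5:**
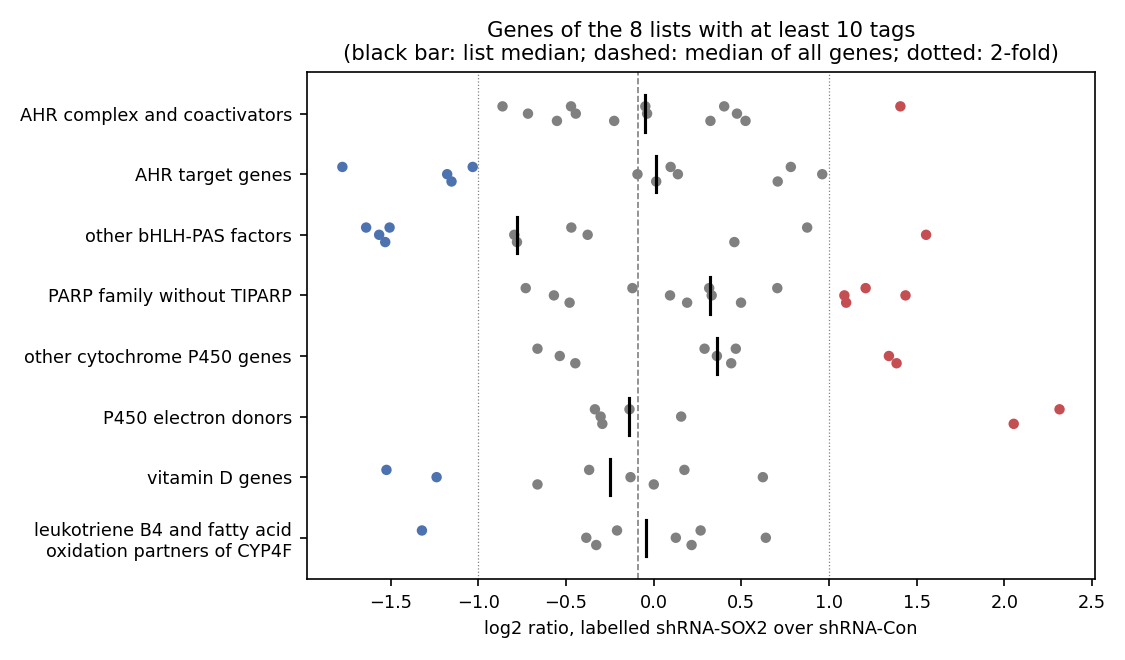
Log2 ratio of the shRNA-SOX2-labelled library over shRNA-Con for each gene with at least 10 tags in the 8 lists, with red and blue points past 2-fold and a black bar at each list's median. The median of the other bHLH-PAS factors (-0.78) lies lowest and that of the other P450 genes (0.36) highest, beside -0.09 over all genes (dashed).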

How the data were processed

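Total RNA (4 µg) of A549 cells was taken after 4 days of doxycycline, and poly(A) RNA was tagged and sequenced at the Beijing Genomics Institute. The authors deposited tag counts per Entrez Gene ID, which are raw and were used here, with TPM. The deposited TPM is the count per 1000000 clean tags of the library (3516266 for shRNA-Con, 3456234 for the library labelled shRNA-SOX2), is not scaled by length, and writes 0 tags as 0.01. It served only to recover the clean tags. The deposited fold changes, p-values and FDR set 1 library against the other for each gene and were not used. The submitters' processing notes name hg19, while the aligner, annotation and tagging enzyme are not given in the sources used here. The column SC was read as shRNA-Con from its initials and S1 as the remaining library, shRNA-SOX2. No listed gene has a count of 1, and the fewest tags above 0 are 2.

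Counts were divided by gene tags (65.5% of clean tags in shRNA-Con, 60.6% in the other), and a count under 3 was set to 3 before a ratio. Ratios carry 95% Clopper-Pearson intervals conditional on the tags of both libraries, levels exact Poisson intervals and shares Wilson intervals, all for counting error only. Rows without a symbol (19) held 0.0535% and 0.0372% of gene tags and were left out of the lists. Some results are not reported here. The calculations were tested on simulated data. With 1 library of each kind no test between conditions was possible, and Fisher's exact test, which compares the reads of the libraries and not the conditions, enters only as an alternative call rule. The members and lists were chosen with earlier results of these data known. The genes named were all members, SOX2 and up to 30 list or P450 genes, taken by the size of the log2 ratio among those past 2-fold with 10 tags and those with 100 tags. Gene positions and transcripts are from GENCODE 29 (GRCh38). Python 3.11.15, scipy 1.17.1 and Biopython 1.88 were used, and scaling factors were taken from edgeR 4.0.16 and, in the same R 4.3.3, DESeq2 1.42.0.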

Additional observations from a re-analysis of the deposited data

How the results depend on the processing

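Of 140 values computed under other settings, 116 stayed within their margin (the counting interval of a ratio, or 1.5 times a count) and 24 moved. A change of direction was looked for only in the ratios of CYP1A1, CYP4F12 and CYP24A1, and none was found. The other scalings shift all ratios alike and by little, so this says nothing about stability. CYP1A1, CYP4F12 and CYP24A1 were the members called under TMM factors, median-ratio scaling, clean tags, no minimum of tags and 0.5 added to each count. With 0.5 added, the CYP1A1 log2 ratio was 5.09 against 2.46, a value that depends on the added count and is no bound. CYP1A1, with 15 tags, was not tested at a minimum of 20 or 50 tags. At 1.5-fold 5 members were called, CYP4F3 and AHR being added, and at 3-fold CYP24A1 was no longer called. The CYP24A1 log2 ratio was -1.56 with clean tags. Scaling by clean tags moved the median log2 ratio of all genes by -0.11, to -0.20, and the share of calls that were higher from 46.3% to 38.2%, beside 52.1% with TMM factors. The number of genes called was 1676 at a minimum of 50 tags, 1570 with Fisher's exact test at an FDR of 0.001, 5465 at 1.5-fold and 1040 at 3-fold, against 2835.

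In the PARP list 2 genes were called with clean tags, 2 with Fisher's exact test and 0 at 3-fold. In the list of leukotriene B4, fatty acid and vitamin K genes 2 were called at 1.5-fold. In it 0 were called at a minimum of 20 or 50 tags, with Fisher's exact test and at 3-fold. At 1.5-fold and 3-fold the counts were 3 and 0 for the AHR complex, 7 and 1 for AHR targets, 8 and 1 for bHLH-PAS factors, and 4 and 0 for vitamin D genes, and 0 other P450 genes were called at 3-fold. No paired analysis was possible because each group has 1 library, and for the same reason no library could be left out. The cause of these shifts beyond the altered thresholds was not tested. The depth limits the low counts most, since 3 tags are 1.30 CPM in shRNA-Con against 1.43 in the other library.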

Other observations

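Genes of other enzymes of drug metabolism, for conjugation, ester cleavage and flavin-dependent oxidation, were looked at after the values were seen. Of the UDP-glucuronosyltransferases, which attach glucuronic acid, UGT2B15 had 0 tags in shRNA-Con against 11 in the shRNA-SOX2-labelled library, UGT2B11 had 0 and 8, and UGT2B7 had 17 and 20. The carboxylesterase gene CES4A had 0 and 11 tags, CES2 had 109 and 129, CES1 had 13 and 11, and CES3 had 7 and 7. The flavin monooxygenase FMO5 had 39 and 76 tags, a log2 difference of 1.10. The cholesterol sulfotransferase SULT2B1 had 41 and 9 tags (-2.05), while SULT1C2 had 0 and 9. Among those with 10 tags, 1 of 2 UDP-glucuronosyltransferases, 1 of 4 carboxylesterases and 1 of 1 flavin monooxygenases were higher and 1 of 2 sulfotransferases was lower, beside 25.5% of all genes called.

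In the 500 kb on each side of CYP4F12, 11 other genes had 10 tags, of which HSH2D (15 and 31 tags) was higher, NOTCH3 (38 and 11) was lower, and the median log2 difference was -0.10. Around CYP1A1, MPI (15 and 34 tags) was higher and ARID3B (17 and 6) lower among 14 genes, with a median of -0.03. Beside CYP24A1, BCAS1 had 6 and 28 tags (2.36) and PFDN4 had 337 and 278 (-0.14).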
